A study of Rattus norvegicus with 6 samples.

Results

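Transcripts of calcium pumps, sodium-calcium exchangers and the small proteins that restrain the reticulum pumps were followed in H9c2 cells with and without knockdown of the long non-coding RNA Tug1. The 10 genes were chosen by name: the reticulum calcium ATPases Atp2a1, Atp2a2 and Atp2a3, the pump regulators Pln and Sln, the plasma membrane calcium ATPases Atp2b1 and Atp2b4, the Golgi pump Atp2c1 and the exchangers Slc8a1 and Slc8a3. All 10 were among the 40456 genes of the count table, and all 10 were among the 14216 genes that passed the filter on low counts.

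Calcium that enters the cytosol during a signal has to be cleared again before the next signal can start. Sarco/endoplasmic reticulum calcium ATPases (SERCA) pump it back into the reticulum at the expense of ATP, and phospholamban (Pln) and sarcolipin (Sln) are small membrane proteins that bind these pumps and lower their activity. Plasma membrane calcium ATPases (PMCA) push calcium out of the cell with high affinity, and sodium-calcium exchangers move larger amounts out by using the sodium gradient. In heart muscle the SERCA2 pump, phospholamban and the NCX1 exchanger are the main players, whereas SERCA1 and sarcolipin are best known from skeletal muscle and, for sarcolipin, the atria.

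H9c2 is an established line of rat cardiomyoblasts with wild-type genotype in the labels. Per the labels' protocols, all cells were differentiated for 5 days in medium with 1% serum and 1 µM retinoic acid, then transfected for 24 h with a locked nucleic acid gapmer at 25 nM by lipofection. The 3 control libraries received a negative control gapmer and the 3 knockdown libraries a gapmer against Tug1, a short antisense strand that recruits RNase H to the RNA it pairs with. Poly-A RNA was sequenced from 1 cell line in culture, with a single Tug1 gapmer, so effects of that oligonucleotide and of the loss of Tug1 cannot be told apart. The 2 oligonucleotides are shown because they are the only stated difference between the groups, 5′ to 3′, each 16 bases long:
Tug1 gapmer: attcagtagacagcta
Negative control gapmer: gctcccttcaatccaa

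Total counts were 12978548 to 13544337 per library, and levels are given as CPM, counts scaled to library size with TMM factors for differences in composition, where 1 CPM stood for 12.9 to 13.8 counts. Tug1 was at 22.0% of its control level after knockdown, and its groups did not overlap. The labels call the cells cardiomyocytes. Of the 13 cardiomyocyte markers, Myh6, Myh7, Ryr2, Nkx2-5 and Tbx5 were at 3 counts or fewer in every library. The 5 that passed the filter were Tnnt2 (4332 to 6051 counts), Gata4 (137 to 179), Actc1 (115 to 259), Actn2 (11 to 24) and Myl2 (5 to 25). Of 15 skeletal muscle markers 14 passed the filter. Of 6 endothelial markers 1 passed the filter (Tek, 26 to 46 counts), and Pecam1, Cdh5 and Kdr were at 3 counts or fewer in every library. Of 6 macrophage markers 3 passed (Cd14, Csf1r and Cd68, with 435 to 896, 95 to 124 and 37 to 117 counts), and Ptprc and Adgre1 were at 0 in every library.

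Of the 10 genes, 7 had an edgeR adjusted p under 0.05, a share of 70.0% where 61.7% of all tested genes passed, so the count alone does not set them apart. There were 6 that rose after Tug1 knockdown (Atp2a1, Atp2b1, Atp2b4, Atp2c1, Slc8a1 and Sln), against a background of 30.8% called higher. That background was 56.1% in the longest decile by genomic span, which holds Atp2c1 and Slc8a1. It was 47.0% in the next decile, which holds Atp2b1 and Atp2b4. A single gene fell, Pln, against a background of 30.9% called lower. The median log2 fold change of the 10 genes was 0.54, beside 0.00 for all tested genes. The 10 genes were chosen with earlier results of these data known, so this median is a description only. The 3 control and the 3 knockdown libraries did not overlap for 8 of the 10 genes (background 65.6%), 7 with the knockdown libraries above (33.0%) and 1 with them below (32.6%). In bulk RNA a change in the number of cells of a type and a change in RNA per cell cannot be told apart.

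**Figure D1:**
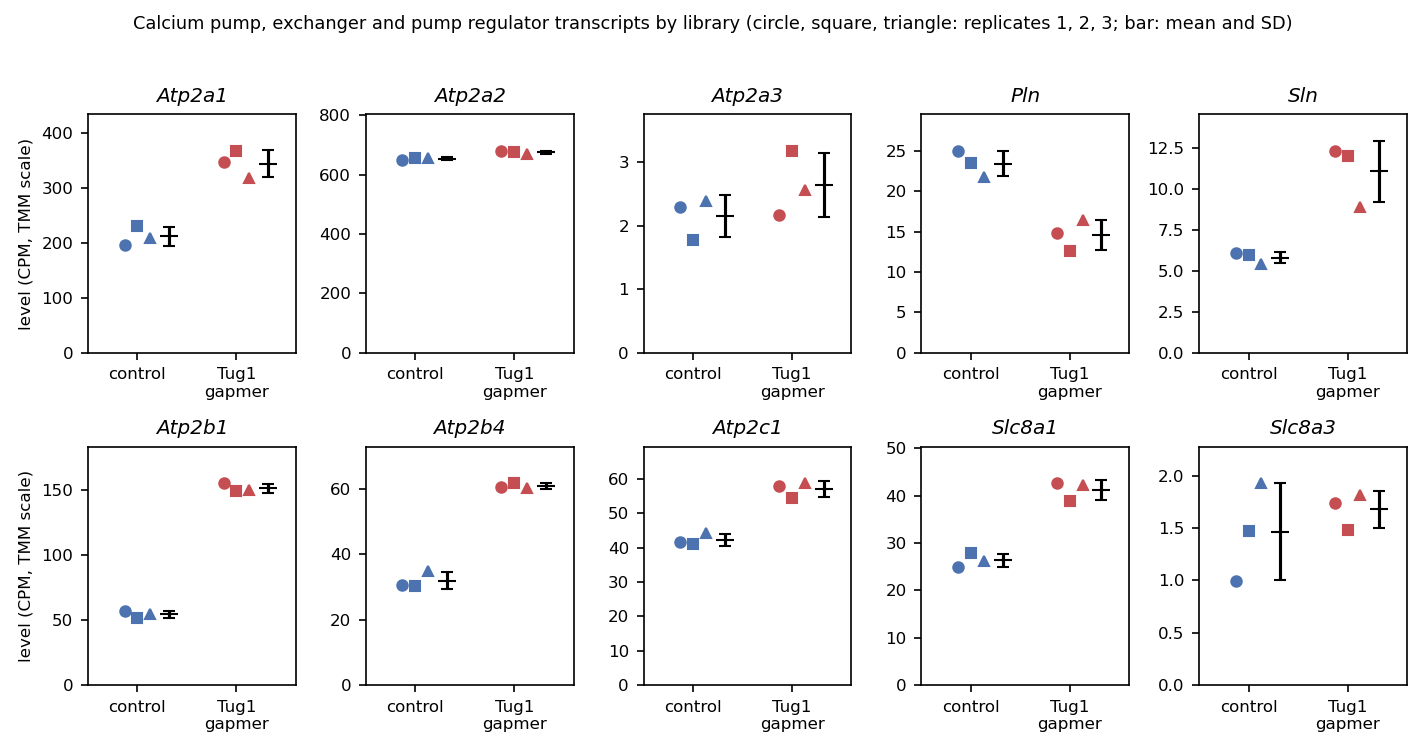
Level of each gene in each library, in CPM on the TMM scale (vertical axes start at 0), for 3 control and 3 Tug1 gapmer libraries; symbols mark replicate numbers and bars give mean and SD. The groups are separate for every gene except Atp2a3 and Slc8a3, and Pln is the only gene with the knockdown libraries below.

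Among the reticulum pumps, Atp2a1 rose and Atp2a2 and Atp2a3 did not pass the test. Atp2a1 encodes SERCA1, the pump of fast skeletal muscle. Its level was 196, 231 and 208 CPM in control replicates 1 to 3 and 347, 367 and 317 CPM in knockdown replicates 1 to 3. The lowest knockdown library thus lay well above the highest control. Group means were 212 ± 17.6 CPM and 344 ± 25.1 CPM (SD, n = 3), a log2 change of 0.70 (SE 0.0579, edgeR adjusted p 4.63e-10). Its annotated span touches that of Rabep2 on the opposite strand, which had 37.8 ± 2.11 and 41.0 ± 1.00 CPM (SD, n = 3) and did not pass.

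Atp2a2 encodes SERCA2, the pump of heart, slow muscle and most other cells. It had 649, 658 and 656 CPM in control cells and 680.2, 675 and 671 CPM in knockdown cells. The groups did not overlap, yet the gap between them was small beside the level. The log2 fold change was 0.05 with a 95% interval from -0.04 to 0.13, and edgeR's adjusted p was 0.334. Scaled by library totals alone the value was 0.10 and passed (edgeR adjusted p 0.0347). With a gene length offset, which takes out of each library the trend of level on genomic span, it was -0.05. Counts per gene do not separate the splice forms of Atp2a2, of which the muscle form and the general form differ in how they are regulated.

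Atp2a3, which encodes the SERCA3 pump of blood and endothelial cells, had 30, 23 and 31 counts in controls and 30, 43 and 34 counts after knockdown. These values overlapped. The log2 fold change was 0.29 with a 95% interval from -0.22 to 0.80, so a moderate rise could not be told from no change at this depth.

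Because a ratio of counts within a library does not depend on how libraries are scaled, the balance between the reticulum pump genes was compared in that form. Atp2a1 gave 0.302, 0.351 and 0.317 counts per Atp2a2 count in controls and 0.511, 0.544 and 0.473 after knockdown. All knockdown ratios lay above all control ratios, by 0.66 on the log2 scale (SE 0.0861). The exact two-sided permutation test gave p = 0.1, the smallest p that 3 against 3 libraries allow, and 0.1 after adjustment over the 4 ratios compared. As a share of the summed counts of the 3 pump genes, Atp2a1 took 23.2% to 25.9% in controls and 32.0% to 35.1% after knockdown. Counts are not corrected for transcript length, so these shares describe reads and not molecules. The summed level of the reticulum pump genes was 868 ± 21.4 CPM in control cells and 1022 ± 28.2 CPM in knockdown cells (SD, n = 3).

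The promoters of Atp2a1 and Atp2a2 are shown because, within one family, Atp2a1 passed the test and Atp2a2 did not. They are the RefSeq sequences of assembly GRCr8, 250 bases before the annotated start and in the direction of the gene, with the E-box motif (CANNTG, the same on both strands) in capitals. The Atp2a1 stretch is chr1:190475411-190475660 on the minus strand and the Atp2a2 stretch chr12:39733269-39733518 on the plus strand, both outside annotated gene spans.
Atp2a1: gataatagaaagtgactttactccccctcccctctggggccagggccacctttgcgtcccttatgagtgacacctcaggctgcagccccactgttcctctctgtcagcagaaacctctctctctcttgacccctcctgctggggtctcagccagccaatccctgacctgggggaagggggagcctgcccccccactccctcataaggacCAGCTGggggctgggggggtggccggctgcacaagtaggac
Atp2a2: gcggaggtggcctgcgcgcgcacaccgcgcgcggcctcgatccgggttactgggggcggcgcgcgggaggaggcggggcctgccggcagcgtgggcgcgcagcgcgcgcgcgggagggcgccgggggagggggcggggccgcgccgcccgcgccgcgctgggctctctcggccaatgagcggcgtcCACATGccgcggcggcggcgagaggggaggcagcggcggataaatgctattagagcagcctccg
Each held a single E-box, the motif bound by myogenic factors among others. It read CAGCTG at 41 bases before the start in Atp2a1 and CACATG at 64 bases before it in Atp2a2, and 65.5% of 33469 promoters of this length held at least 1 such motif. The sequences differed in composition, with 62.4% G and C in Atp2a1 and 80.0% in Atp2a2, where the median promoter had 51.2%. Atp2a2 held 3 GC boxes (GGGCGG, either strand) and Atp2a1 held 0 (30.5% of promoters hold at least 1). Atp2a1 held 1 copy of the nuclear receptor half-site AGGTCA and Atp2a2 held 0 (14.1% of promoters). Both held 1 CCAAT box (34.0% of promoters), and TATAAA, MEF2 and CArG motifs were not in these windows. RefSeq promoters were given for 9 of the 10 genes. The other 7 windows touched annotated gene spans and are not printed.

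The pump regulators moved in opposite directions. Pln encodes phospholamban, which slows SERCA2 until it is phosphorylated. It had 25.0, 23.5 and 21.8 CPM in control cells and 14.8, 12.6 and 16.4 CPM in knockdown cells. All knockdown libraries lay below all controls, at 62.2% of the control mean. The log2 fold change was -0.68, with an SE of 0.0999 and an edgeR adjusted p of 2.99e-06, and 10.5% of tested genes had a lower value. In the RefSeq gene table the span of Pln lies within that of Cep85l, on the opposite strand. Cep85l had 31.5 ± 2.03 CPM in control cells and 28.5 ± 1.23 CPM in knockdown cells (SD, n = 3), a log2 change of -0.14 that did not pass. Cep85l passed as lower, at -0.43, with the gene length offset. Whether strand was used in counting is not given in the sources used here, so reads of these overlapping genes may not be fully separated.

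Sln encodes sarcolipin, which makes the SERCA pump less efficient in muscle. It had 6.06, 5.96 and 5.40 CPM in control cells and 12.3, 12.0 and 8.91 CPM in knockdown cells. Knockdown replicate 3 was the lowest of its group and still above every control. The log2 fold change was 0.93, with an SE of 0.145 and an edgeR adjusted p of 7.39e-06, and leaving out single libraries gave 0.85 to 1.07. The level was low, with 70 to 79 counts in the controls and 118 to 170 after knockdown.

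Pln was also compared with Atp2a2, the gene of the pump it binds in heart. The ratio of Pln to Atp2a2 counts was 0.0385, 0.0357 and 0.0333 in controls and 0.0217, 0.0186 and 0.0244 after knockdown. The groups did not overlap, and the log2 difference was -0.74 (SE 0.129, exact permutation p = 0.1, adjusted 0.1).

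**Figure D2:**
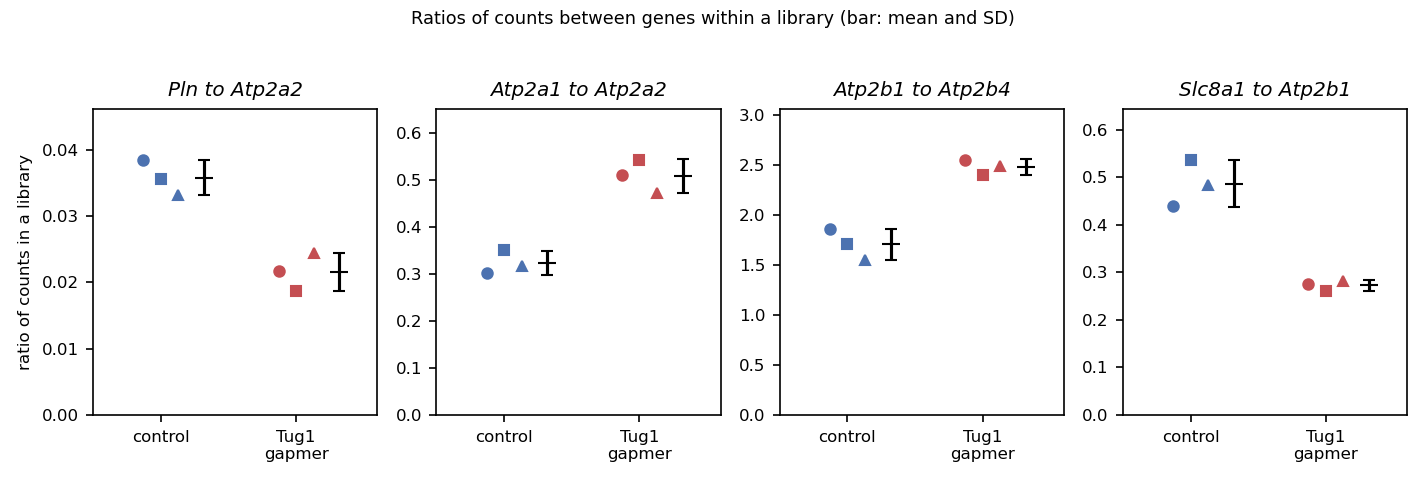
Ratio of the counts of a pair of genes within each library (vertical axes start at 0), for 3 control and 3 Tug1 gapmer libraries, with mean and SD as bars. The ratios of Pln to Atp2a2 and of Slc8a1 to Atp2b1 are lower and those of Atp2a1 to Atp2a2 and of Atp2b1 to Atp2b4 higher in all knockdown libraries.

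Both plasma membrane pump genes rose, and Atp2b1 had the highest log2 fold change of the 10 genes. Atp2b1 encodes PMCA1, the form made by nearly all cells. It had 57.0, 51.7 and 54.2 CPM in control cells and 155, 149 and 149.6 CPM in knockdown cells. The replicates were close together and the groups far apart, with a coefficient of variation of 4.86% in controls and 2.28% after knockdown. The fold change was 2.78 and its log2 value 1.48, with a 95% interval from 1.36 to 1.59 (edgeR adjusted p 7.65e-16). That interval lay above the intervals of the other 9 genes, and the gene ranked 211 from the top of the 14216 tested genes by log2 fold change.

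Atp2b4 encodes PMCA4, a form abundant in smooth muscle, heart and red cells. It had 30.7, 30.2 and 35.0 CPM in control cells and 60.7, 61.8 and 60.2 CPM in knockdown cells, again without overlap. The log2 fold change was 0.93, with an SE of 0.0676 and an edgeR adjusted p of 5.33e-11. The balance between these genes was compared as well. The ratio of Atp2b1 to Atp2b4 counts was 1.86, 1.71 and 1.55 in controls and 2.55, 2.40 and 2.49 after knockdown, a log2 difference of 0.54 (SE 0.0802, exact permutation p = 0.1, adjusted 0.1). Together the 2 genes went from 86.3 ± 3.86 to 212 ± 3.22 CPM (SD, n = 3), or 2.46 times the control level.

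The remaining genes of this family were near the limit of detection. Atp2b2 had at most 1 count in any library. Atp2b3 had 1, 1 and 2 counts in controls and 6, 4 and 11 counts after knockdown and was not tested. Both forms are best known from neurons.

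Atp2c1 encodes SPCA1, a pump that loads the Golgi with calcium and manganese. It had 41.6, 40.9 and 44.1 CPM in control cells and 57.8, 54.4 and 58.8 CPM in knockdown cells. The groups were separate, with a log2 change of 0.43 (SE 0.0628, edgeR adjusted p 2.66e-06). With the gene length offset the value was 0.21 (edgeR adjusted p 0.00444). Tmem165, another Golgi protein linked to calcium and manganese transport, fell by 0.38 on the log2 scale (edgeR adjusted p 2.39e-05).

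Among the exchangers, Slc8a1 rose. It encodes NCX1, the exchanger of heart muscle. Its level was 25.0, 27.8 and 26.2 CPM in control cells and 42.6, 38.8 and 42.2 CPM in knockdown cells. The groups did not overlap, and the log2 fold change was 0.65, with an SE of 0.0737 and an edgeR adjusted p of 8.20e-08. With the gene length offset it was 0.27 (edgeR adjusted p 0.00328), and the gene lies in the longest decile of tested genes by genomic span. Set against the plasma membrane pump, Slc8a1 gave 0.439, 0.537 and 0.484 counts per Atp2b1 count in controls and 0.275, 0.261 and 0.282 after knockdown, a log2 difference of -0.83 (SE 0.0908, exact permutation p = 0.1, adjusted 0.1).

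Slc8a3 encodes NCX3, found in brain and skeletal muscle. It had 13, 19 and 25 counts in controls and 24, 20 and 24 counts after knockdown. These ranges overlapped, and the log2 fold change of 0.19 had a 95% interval from -0.42 to 0.80 (edgeR adjusted p 0.588). It was negative with the length offset (-0.05) and without control replicate 1 (-0.02), and 0.44 without control replicate 3. Slc8a2, the brain form NCX2 and not part of the 10 genes, was also low, with 13 to 17 counts in controls and 24 to 27 after knockdown. Its log2 fold change was 0.76 (edgeR adjusted p 0.0237), and it lost its call in DESeq2's Wald test (0.0924) and without control replicate 1 or 3 or knockdown replicate 2 or 3 (0.0626 to 0.0853).

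**Figure D3:**
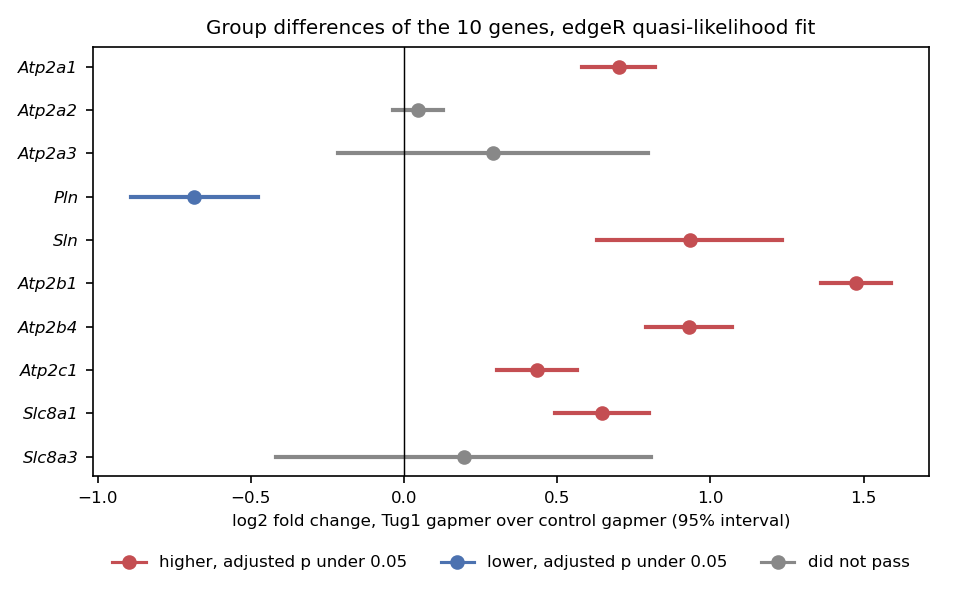
Log2 fold change of Tug1 gapmer over control gapmer for the 10 genes (horizontal axis) with 95% intervals from edgeR's quasi-likelihood fit. Atp2b1 lies highest at 1.48, Pln lowest at -0.68, and the intervals of Atp2a2, Atp2a3 and Slc8a3 include 0.

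Across all tested genes the log2 fold change moved with genomic span. Its median was -0.21 in the shortest decile and 0.33 in the longest decile, where 56.1% of genes were called higher and 11.8% lower. Of the 10 genes, Slc8a1, Slc8a3 and Atp2c1 lay in the longest decile, Atp2b1 and Atp2b4 in the next, and Pln in decile 4 counted from the shortest. With the offset that removes this trend, all 7 genes kept their direction and passed. Atp2b1 was then at 1.27, Atp2b4 at 0.74, Pln at -0.64, Atp2a1 at 0.74 and Sln at 0.93. The values of Slc8a1 and Atp2c1 shrank most, from 0.65 to 0.27 and from 0.43 to 0.21.

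**Figure D4:**
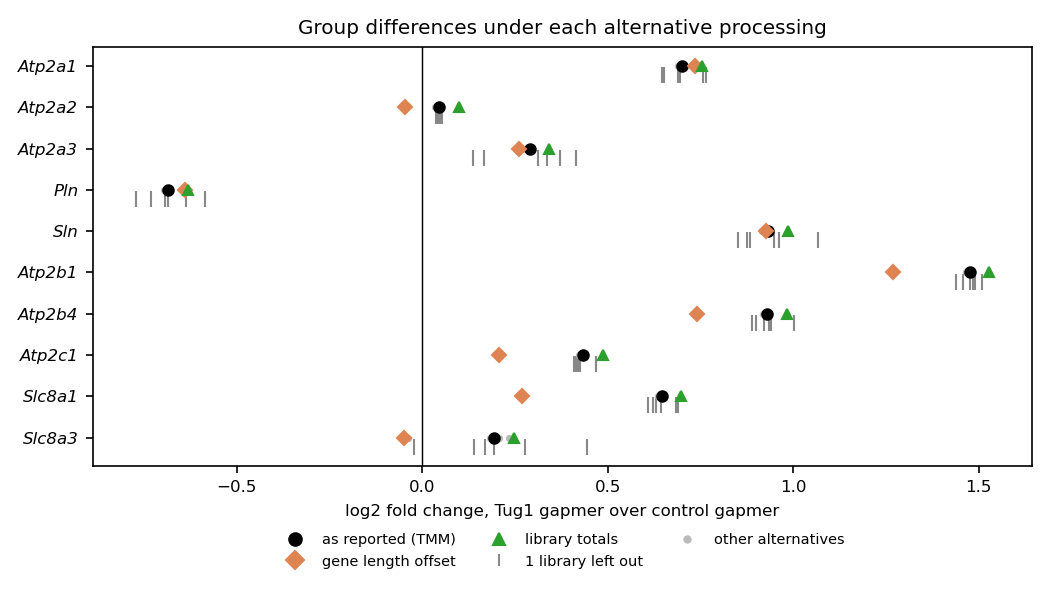
Log2 fold change of the 10 genes (horizontal axis) as reported, with an offset for gene length, with library totals, with each library left out in turn and under the other alternatives. The 7 genes that passed stay on their side of 0 throughout, while Atp2a2 and Slc8a3 cross it with the length offset.

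Partners of these pumps had log2 fold changes from -0.45 to 0.39. Nptn and Bsg, which encode the membrane proteins that PMCA pumps need as subunits, had log2 fold changes of -0.09 and 0.01 and did not pass (edgeR adjusted p 0.112 and 0.820). Of 13 subunits and binding partners 10 were tested, and 3 rose and 2 fell, with a median log2 fold change of 0.10. Mrln, which encodes the SERCA-inhibiting peptide myoregulin, rose by 0.39 (SE 0.139, edgeR adjusted p 0.0192) but did not pass in DESeq2's Wald test (0.0700) or without control replicate 2 or knockdown replicate 1 (0.0570 and 0.0847). Hrc, a histidine-rich calcium-binding protein of the reticulum lumen, rose by 0.27. Tmx1, a reticulum thioredoxin that acts on SERCA, fell by 0.45 on the log2 scale. Hax1, a phospholamban-binding protein, fell by 0.22 on the log2 scale and no longer passed with the length offset (-0.05).

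Genes that set the phosphorylation of phospholamban went both ways. Of 24 genes 19 were tested, and 6 rose and 5 fell, with a median of 0.04. The kinase genes Camk2g and Prkacb rose by 0.94 and 0.83. Among the other genes of the Camk2 family, Camk2a was lower, at -0.31, and Camk2b and Camk2d did not pass. Prkar1b, a regulatory subunit of protein kinase A, went from 71.1 ± 2.28 to 34.4 ± 2.48 CPM (SD, n = 3), a log2 change of -1.05. Adrb1 and Ppp1r1a were at 3 counts or fewer in every library.

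The sodium pump sets the gradient that drives the exchangers. Of 10 sodium gradient genes 8 were tested, 3 fell and 2 rose, with a median log2 fold change of 0.13. Among those that fell, Fxyd5, a regulator of the sodium pump, went from 111 ± 6.56 to 54.1 ± 3.29 CPM (SD, n = 3), a log2 change of -1.03 (SE 0.0610, edgeR adjusted p 1.80e-12). The beta subunit gene Atp1b1, chosen after its values were seen, went from 131 ± 8.15 to 99.7 ± 10.4 CPM (SD, n = 3), a log2 change of -0.39 (SE 0.0653, edgeR adjusted p 1.84e-05). The groups did not overlap for either gene.

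Of 11 other calcium pump, exchanger and Golgi transport genes 6 were tested, 2 rose and 2 fell. Besides Slc8a2 and Tmem165, already given, Slc24a3, a potassium-dependent exchanger, rose by 0.50 and was at 0.08 without a call with the length offset (edgeR adjusted p 0.386). Slc8b1, the mitochondrial exchanger, was at -0.36. Slc24a1 and Slc24a2 were at 3 counts or fewer in every library.

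Transcription factors known to act on pump genes were also compared. Of 12 factors 11 were tested, and 3 rose and 3 fell. Myog and Mef2d rose by 0.82 and 0.69, and Egr1, known to repress Atp2a2, was at -1.37. Myod1 was at -0.32 and did not pass with the length offset (edgeR adjusted p 0.0983). The thyroid hormone receptor gene Thrb was at 3 counts or fewer in every library. In these 5 lists of partners, kinases, sodium pump genes, other transporters and factors, 50.0% to 66.7% of tested genes passed, close to the background of 61.7%.

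Markers of skeletal muscle moved with Atp2a1 and Sln. Of 14 tested markers 11 rose and 1, Myod1, fell, with a median log2 fold change of 0.55. Called were 85.7%, where 61.7% of all tested genes passed and 30.8% were called higher. The skeletal muscle list summed to 1405 to 1422 CPM in control cells and 1872 to 2028 CPM in knockdown cells. Myog was at 0.82, Myf6 at 0.78 and Des at 0.22. Myf6 and Des were near the threshold (edgeR adjusted p 0.0376 and 0.0319) and lost their calls in DESeq2's Wald test. Myf6 also lost its call without control replicate 1, 2 or 3 or knockdown replicate 1 or 2 (edgeR adjusted p 0.0523 to 0.151), and Des without control replicate 1 or 2 or knockdown replicate 2 or 3 (0.0539 to 0.126). Over all alternatives, Myf6 lost its call in 10 and Des in 7. Of 6 smooth muscle markers 4 rose, among them Myh11 (1.07) and Lmod1 (0.87). That is 66.7% called, all of them higher, where 61.7% of all tested genes passed and 30.8% were called higher. The smooth muscle list summed to 712 to 772 CPM in control cells and 873 to 996 CPM in knockdown cells. Most of that sum was Acta2, with means of 638 CPM in control cells and 805 CPM in knockdown cells. Among the 5 tested cardiomyocyte markers 3 rose (Myl2, Actc1 and Tnnt2) and 0 fell. That is 60.0% called, all of them higher, beside the same 61.7% and 30.8%. The cardiomyocyte list summed to 360.1 to 392 CPM in control cells and 420 to 472 CPM in knockdown cells. Most of that sum was Tnnt2, with means of 349 CPM in control cells and 410 CPM in knockdown cells. Myl2 did not pass without control replicate 3 or knockdown replicate 1 (edgeR adjusted p 0.0521 and 0.0947). The part of these markers in the rises of Atp2a1 and Sln was not tested.

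Fibroblast markers were split, with Dcn (0.57) and Col3a1 (0.47) higher and Col1a1 (-0.23) lower among 4 tested, and Tcf21 at 0 counts. Their summed level overlapped between the groups, at 28420 to 29330 CPM in control cells and 27067 to 29071 CPM in knockdown cells. Most of that sum was Col1a1 and Col3a1, which moved in opposite directions. Means went from 21693 to 18554 CPM for Col1a1 and from 6426 to 8928 CPM for Col3a1. Of the macrophage list Cd14 was at -1.03 and Cd68 at 1.09. This list summed to 78.1 to 81.9 CPM in control cells and 50.0 to 50.2 CPM in knockdown cells. Most of that sum was Cd14, whose mean went from 68.0 to 33.4 CPM, while Cd68 went from 3.60 to 7.65 CPM. Called were 75.0% of tested fibroblast and 66.7% of tested macrophage markers, beside 61.7% of all tested genes. The endothelial list summed to 3.02 to 4.63 CPM in control cells and 3.11 to 4.20 CPM in knockdown cells, and its only tested gene, Tek, did not pass.

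**Figure D5:**
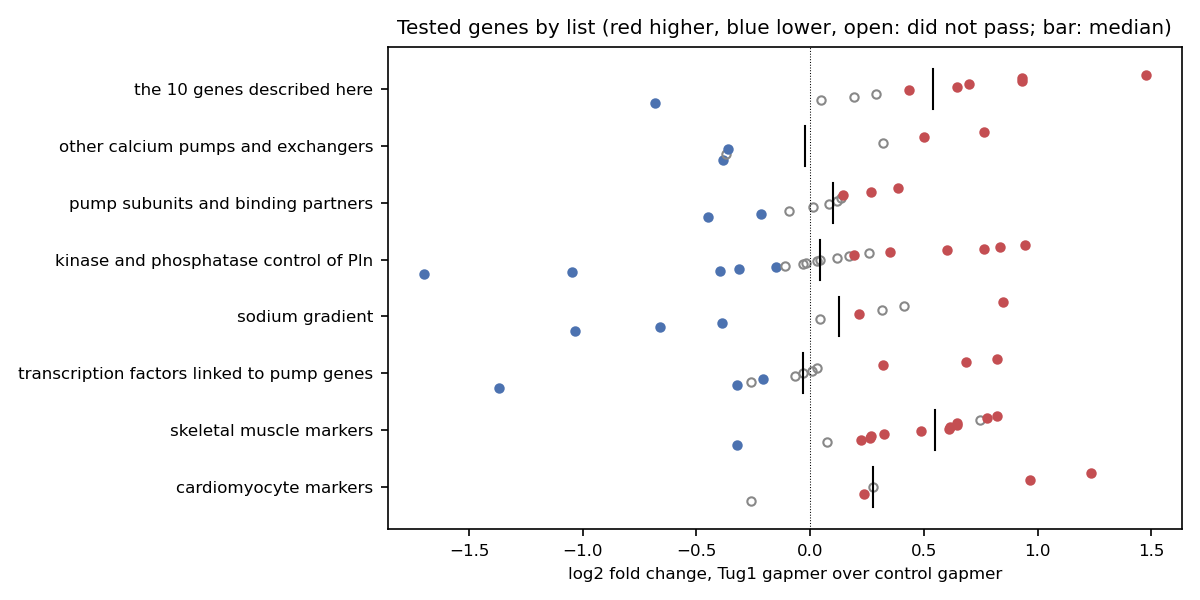
Log2 fold change of Tug1 gapmer over control gapmer for every tested gene among the 10 genes and 7 of the lists (horizontal axis), filled where edgeR's adjusted p was under 0.05, with a bar at each list's median. The medians of the 10 genes (0.54) and of the skeletal muscle markers (0.55) lie furthest from 0 of those drawn.

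Genes whose levels followed Atp2b1 most closely over the 6 libraries, among 9067 other genes averaging 10 CPM or more, were Mtmr6, Acadvl and Srp68. They rose by 0.90, 0.29 and 0.50 on the log2 scale. Those closest to Pln were Tctn3, Pwp1 and Hat1, at -0.34, -0.32 and -0.34. Likeness was ranked by Pearson's r of log2 CPM, which here rests largely on the split between the groups, so single values are not given. It was over 0.95 for 1704 of the 9067 genes with Atp2b1 and for 485 with Pln, so the named genes do not stand alone.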

How the data were processed

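Poly-A RNA was sequenced in 6 libraries of H9c2 cells, grouped by the titles in the labels. Counts were deposited as whole numbers, 1 per gene and library, with no normalization and no pooling. FastQC 0.11.7, fastp 0.14.1 and STAR 2.5 are named, without roles, in the submitters' processing notes. The counting tool, genome build and annotation, the use of strand and the handling of reads shared between genes are not given in the sources used here. Poly-A selection favours intact, tailed transcripts. The labels do not say whether replicates were separate cultures, so p-values measure the spread between these libraries, which may be technical. No library pair within a group agreed within sampling noise (chi-square of counts per degree of freedom from 2.18 to 3.60).

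Counts were fitted in R 4.3.3 with edgeR 4.0.16 over the whole table: expression filter (minimum count 10, minimum total 15), TMM scaling (factors 0.979 to 1.02), quasi-likelihood test on group, two-sided, prior count 0.125, Benjamini-Hochberg adjustment over 14216 genes. The standard error is the log2 fold change divided by the root of F. At 3 counts, the limit below which no level is read, a library holds 0.217 to 0.232 CPM; this covers counting error only. Since no transcript lengths were used, levels are not compared between genes. The scripts were tested on simulated counts.

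The members, the lists and the rule for naming genes were chosen with earlier results of these data known. Named were the 10 members, Tug1, from each other list up to 2 called genes at either end and, for cell type lists, markers at 3 counts or fewer, and the 3 genes most like Atp2b1 and Pln. Nptn and Bsg, untested or undetected list members outside the cell type lists, Tek, Csf1r, Gata4 and Actn2 were named after their values were seen. So were Atp1b1, Camk2a, Camk2b, Camk2d, Cep85l, Rabep2 and the span trend. Some genes that the rule names are not reported here.

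Alternatives were DESeq2 size factors, library totals, DESeq2's Wald test (1.42.0), limma-voom (3.58.1), no filter beyond 1 count, a mean of at least 1 CPM, an adjusted p of 0.01, a block for replicate number, omission of each library in turn, and an offset for gene length (lowess of log2 deviation on log2 genomic span, span 0.3, for 13084 genes with a span). Spans and promoters came from RefSeq tables of GRCr8, matched by symbol or older symbol for 30071 of 40456 genes.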

Additional observations from a re-analysis of the deposited data

How the results depend on the processing

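The 7 genes that passed kept their direction and their call in all 16 alternatives, and over 160 combinations of the 10 genes and alternatives 154 kept both. Atp2a2 passed as higher with library totals (0.0984) and was negative, without a call, with the length offset (-0.0455) and with that offset and the replicate block (-0.0456). Slc8a3 was negative, without a call, with the length offset (-0.0484), with that offset and the block (-0.0381) and without control replicate 1 (-0.0212), and reached 0.443 without control replicate 3. The count of the 10 genes that passed was 8 with library totals and 7 in the other alternatives, and that of all genes ran from 7353 to 8987. The ratios kept their direction with each library left out, from -0.83 to -0.63 for Pln to Atp2a2, 0.61 to 0.72 for Atp2a1 to Atp2a2, 0.48 to 0.61 for Atp2b1 to Atp2b4 and -0.90 to -0.76 for Slc8a1 to Atp2b1. Replicate numbers did not pair the libraries (correlations of deviations -0.0053, 0.0298 and 0.0270). With the replicate block 8848 genes passed, 7 of the 10 among them, and the exact test of the paired ratios cannot fall below 0.25. At an adjusted p of 0.01 the sodium gradient list had 3 called genes, and with the length offset and block the endothelial list had 1. Alternatives for the lists and for 44 other named genes were added after the data had been seen, and of 703 combinations 43 lost a call, 3 gained one and 0 reversed. Beyond what the length offset and the scaling do by construction, no cause was tested. Depth limits Atp2a3 and Slc8a3, at 13 to 43 counts per library.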
